A study of Drosophila melanogaster with 9 samples.

Results

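Transcripts of 30 nuclear genes for aminoacyl-tRNA synthetases, 16 cytosolic and 14 mitochondrial enzymes, were followed across 9 whole-embryo arrays of Drosophila melanogaster, among 11982 genes with a single platform symbol. They were chosen by name: a member's symbol is an amino acid code followed by RS, with the ending -m for the mitochondrial form. Of the 32 probe sets that met this rule, 29 were the only one of their gene and 3 belonged to TrpRS, for which the probe set with the highest mean over the 9 arrays was taken. Both cytosolic phenylalanyl subunits carry hyphenated symbols and fell outside the rule, so they are described beside the members.

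Aminoacyl-tRNA synthetases join each amino acid to the tRNAs that read its codons, and the charged tRNAs then feed the ribosome. The enzymes fall into class I and class II, which have unrelated catalytic folds, and separate nuclear genes supply most of the enzymes that mitochondria import. In human cells several cytosolic enzymes, among them those for isoleucine, leucine, glutamine, lysine, arginine and the fused GluProRS, sit in a multisynthetase complex held by the scaffold proteins AIMP1, AIMP2 and AIMP3. Growing embryonic tissue draws on all of them, and the transcription factor ATF4 (crc in the fly) is known to raise many synthetase genes when amino acids run short.

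The study asks how transcripts respond when cabut (cbt, also dTIEG), a zinc finger transcription factor needed for dorsal closure, is lost or supplied in excess. All embryos were dechorionated and at stages 10 to 13, and each of the 3 groups has 3 arrays. Mutant embryos were homozygous for cbtEP(2)2237E1 and were sorted as the non-GFP embryos of a stock kept over Cy0, twi-eGFP, and control embryos were w1118, also sorted. The third group carried the epidermal driver 69B-Gal4 with UAS-Cbt, and no driver-only control was analysed here. RNA of the mutant and 69B>Cbt samples came from about 1000 embryos each, and for w1118 the labels give no number. The labels do not state that a group's 3 RNA samples are separate embryo collections. All p-values therefore describe the spread among these samples alone, and it may be technical. In whole embryos, fewer cells of a type and less RNA per cell cannot be told apart.

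Values are log2 levels, so a difference of 1 is a doubling. The cbt probe set read 6.22, 6.05 and 7.90 on w1118 replicates 1, 2 and 3, 4.25, 4.70 and 3.85 in the mutant, and 3.17, 3.16 and 3.74 in the 69B>Cbt group. It read lower in the group meant to overexpress cbt, by a log2 difference of -3.37 from w1118 (limma adjusted p = 0.0436). Whether this probe set reads the UAS-Cbt transcript was not tested, so the value goes against the label only for the transcripts it reads. That group is called the overexpression label throughout. The difference was -3.71 without w1118 replicate 2 (limma adjusted p = 0.000641). It did not pass against replicate 2 alone, at -2.70 (limma adjusted p = 0.0716), or with just w1118 and the overexpression label in the fit (limma adjusted p = 0.165). The w1118 arrays did not form 1 cluster: replicates 1 and 3 correlated at r = 0.987 over the table, whereas replicate 2 correlated with them at 0.890 and 0.894 and with the overexpression label arrays at 0.968 to 0.981. Poly-A spike-in controls averaged 1.91 and 2.42 on w1118 replicates 1 and 3 and 3.09 to 4.03 on all other arrays. The main results against w1118 are therefore also given without replicate 2 and against replicate 2 alone.

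All 16 cytosolic genes lay above the array's background on all 9 arrays, and so did 9 of the 14 mitochondrial genes. Background was read from the Tag controls, probe sets without a target in the fly, as the highest of them on an array (0.58 to 1.20). AsnRS-m, CysRS-m, GluRS-m, IleRS-m and TrpRS-m exceeded it on some arrays only. Mean levels over the 9 arrays ran from 3.40 to 6.53 for the cytosolic probe sets and from 0.76 to 5.57 for the mitochondrial ones. The spread of a member between replicates had a median SD of 0.52 in w1118, 0.31 in the mutant and 0.23 in the overexpression label (n = 3 each). In w1118, replicate 2 stood above both other arrays for 12 members, below both for 14 and between them for 4.

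**Figure D1:**
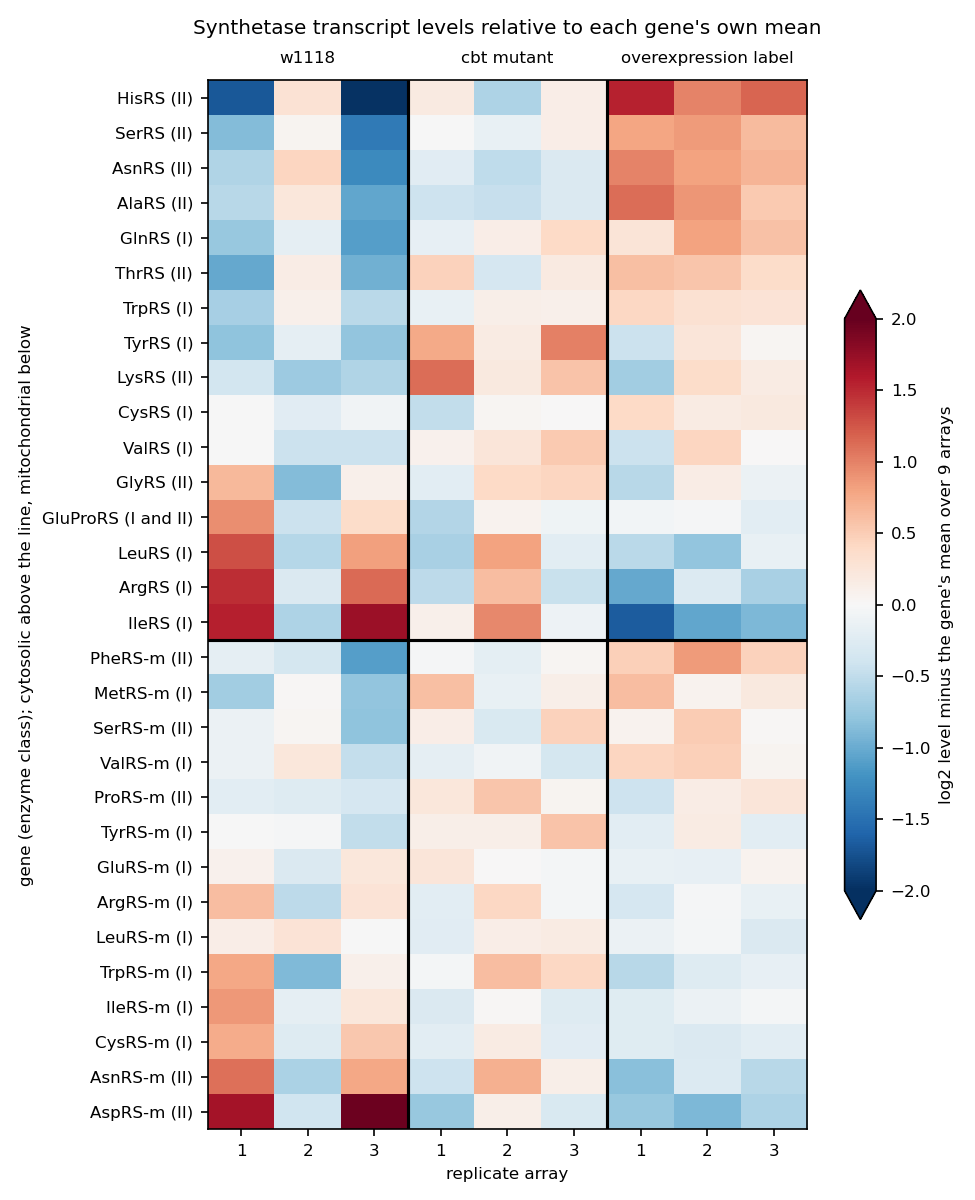
Level of each of the 30 synthetase genes on each array (columns, 3 replicates per group), as log2 level minus the gene's mean over the 9 arrays; red is above and blue below that mean, and cytosolic genes stand above the horizontal line. HisRS, SerRS, AsnRS and AlaRS are red on all 3 overexpression label arrays, IleRS is blue there, and w1118 replicate 2 differs from w1118 replicates 1 and 3 in most genes.

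In the overexpression label 10 members lay above every w1118 array and 3 lay below every one, where 17.0% and 12.0% of all 18769 probe sets did so. In limma's test over all probe sets 0 of the 30 members passed an adjusted p of 0.05, beside 0.373% of all probe sets, and the smallest adjusted p of a member was 0.0873. At an unadjusted p under 0.05 there were 9 higher and 4 lower members, beside 16.3% and 15.6% of all probe sets. The median difference was 0.53 over the 16 cytosolic genes and -0.19 over the 14 mitochondrial genes, against 0.09 over all probe sets.

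Of the 10 members above every w1118 array, 5 were cytosolic class II enzymes. HisRS, which charges tRNAs with histidine, read 3.13, 5.11 and 2.85 on the w1118 arrays, 5.0, 4.21 and 4.96 in the mutant and 6.37, 5.81 and 5.98 in the overexpression label. Every overexpression label array exceeded every w1118 and every mutant array, and w1118 replicate 2 lay close to the mutant. The difference from w1118 was 2.36 (SE 0.56), or 5.12-fold, and did not pass (limma adjusted p = 0.0933). Without w1118 replicate 2 it was 3.06 and passed (limma adjusted p = 0.000147), and against replicate 2 alone it was 0.94.

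SerRS, the seryl enzyme, read 5.66, 6.59 and 5.12 in w1118, 6.52, 6.38 and 6.67 in the mutant and 7.31, 7.39 and 7.16 in the overexpression label. Its 3 groups stood in that order by their means of 5.79 ± 0.75, 6.52 ± 0.14 and 7.29 ± 0.11 (SD, n = 3 each), but w1118 replicate 2 lay within the mutant range. The overexpression label stood 1.5 above w1118 (SE 0.33), or 2.83-fold, with a limma adjusted p of 0.0874. That difference was 1.90 without w1118 replicate 2 (limma adjusted p = 0.00018) and 0.70 against it alone.

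AsnRS and AlaRS, the asparaginyl and alanyl enzymes, stood out in the overexpression label and not in the mutant; the difference between those groups is tested further on. AsnRS read 4.49, 5.53 and 3.82 in w1118, 4.88, 4.59 and 4.81 in the mutant and 6.09, 5.90 and 5.77 in the overexpression label. AlaRS read 4.38, 5.15 and 3.89 in w1118, 4.52, 4.47 and 4.64 in the mutant and 6.05, 5.81 and 5.45 in the overexpression label. For both genes the mutant arrays fell inside the w1118 range and the overexpression label arrays lay above all others. AsnRS differed from w1118 by 1.31 (SE 0.38, limma adjusted p = 0.097) and AlaRS by 1.30 (SE 0.30, limma adjusted p = 0.0933). ThrRS, the threonyl enzyme, stood 1.12 higher (SE 0.33, limma adjusted p = 0.0986), also with no overlap with w1118. LysRS and GlyRS, the remaining class II genes of the cytosol, overlapped with w1118 at differences of 0.52 and -0.13. The median over the 7 cytosolic class II genes was 1.30, and 5 of them did not overlap with w1118, all on the higher side. Against w1118 replicate 2 alone that median was 0.67. Without replicate 2 the genes HisRS, SerRS, AsnRS, AlaRS and ThrRS passed, where 40.6% of all probe sets passed. In the mutant all 7 class II genes had a positive difference from w1118, with a median of 0.71. Against replicate 2 alone the mutant median was -0.07.

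**Figure D2:**
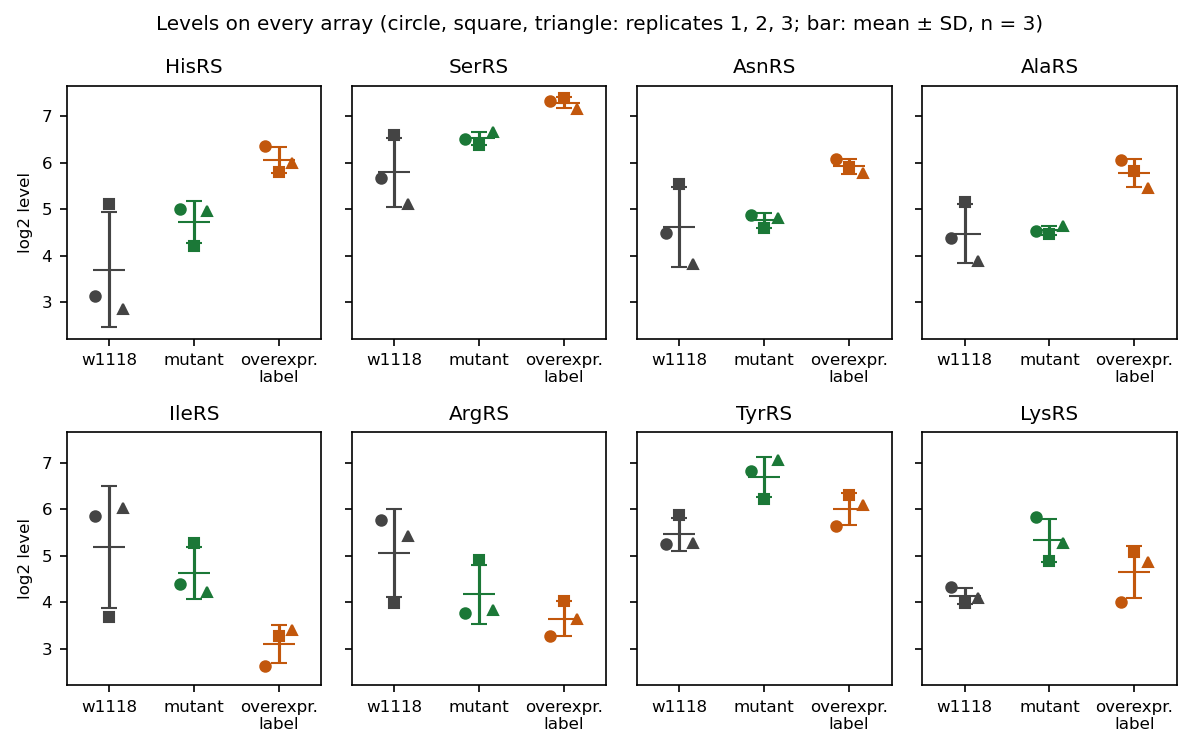
Log2 level on every array (circle, square and triangle for replicates 1, 2 and 3) with the group mean ± SD (n = 3) for 8 cytosolic genes. HisRS, SerRS, AsnRS and AlaRS are highest on the overexpression label arrays, IleRS is lowest there, and TyrRS and LysRS are higher on the mutant arrays than on any w1118 array; the w1118 square (replicate 2) lies apart from the other w1118 points for HisRS, IleRS and ArgRS.

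Among the 8 cytosolic class I genes the values pointed both ways, 5 up and 3 down, with a median of 0.32. GlnRS, which charges tRNAs with glutamine, read 4.03, 4.59 and 3.69 in w1118, 4.62, 4.92 and 5.18 in the mutant and 5.05, 5.58 and 5.38 in the overexpression label. It lay above every w1118 array in both other groups, and in the overexpression label the difference was 1.23 (SE 0.26, limma adjusted p = 0.0873), 1.48 without w1118 replicate 2 and 0.74 against it alone. TrpRS and CysRS, the tryptophanyl and cysteinyl enzymes, also cleared the w1118 range. Their group means differed by 0.69 (SE 0.20, limma adjusted p = 0.0974) and 0.35 (SE 0.17, limma adjusted p = 0.184). Against replicate 2 alone they stood 0.22 and 0.48 higher, and without it TrpRS passed at 0.93 and CysRS did not at 0.29 (limma adjusted p = 0.000871 and 0.230). Of the other probe sets of TrpRS, 1 gave a like difference of 0.72 and the dimmest gave -0.17, so the 3 probe sets did not all point the same way. TyrRS and ValRS overlapped with w1118, at 0.54 and 0.29.

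IleRS, the isoleucyl enzyme, had the lowest difference of the 30. It read 5.85, 3.68 and 6.02 in w1118, 4.40, 5.27 and 4.21 in the mutant and 2.64, 3.26 and 3.40 in the overexpression label. The overexpression label arrays lay below all others, and w1118 replicate 2 lay nearer to these than to the other w1118 arrays. The difference from w1118 was -2.08 (SE 0.62), a level 4.23-fold lower, with a limma adjusted p of 0.0982. It was -2.83 without w1118 replicate 2 (limma adjusted p = 0.000476) and -0.58 against replicate 2 alone.

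ArgRS, the arginyl enzyme, read 5.76, 3.99 and 5.42 in w1118, 3.77, 4.90 and 3.84 in the mutant and 3.27, 4.02 and 3.64 in the overexpression label. Its w1118 replicate 2 fell among the overexpression label arrays, so the groups overlapped at a difference of -1.42 (SE 0.50, limma adjusted p = 0.114). LeuRS, the leucyl enzyme, differed by -1.01 (SE 0.53, limma adjusted p = 0.219) and by 0.07 against w1118 replicate 2 alone. GluProRS, 1 protein that charges both glutamate and proline tRNAs, read 6.91, 5.55 and 6.34 in w1118, 5.39, 6.05 and 5.89 in the mutant and 5.92, 5.96 and 5.77 in the overexpression label. The overexpression label arrays lay inside its w1118 range and 1 mutant array fell just below it, and the overexpression label's difference of -0.38 (SE 0.33, limma adjusted p = 0.427) turned to 0.33 against replicate 2 alone.

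The genes of the multisynthetase complex thus did not point one way. The cytosolic methionyl and aspartyl enzymes, which the human complex also holds, had no probe set that met the rule. Of the 6 complex members measured here, IleRS, ArgRS, LeuRS and GluProRS had lower values in the overexpression label. GlnRS and LysRS had higher ones, and the median of the 6 was -0.70. Of the 10 cytosolic genes outside the complex 9 were higher, with a median of 0.90, where 60.4% of all probe sets were higher. After a correction for gene length the medians were -0.39 and 0.94. Without w1118 replicate 2, IleRS, ArgRS, LeuRS and GluProRS passed as lower and GlnRS as higher, where 40.6% of all probe sets passed. Against replicate 2 alone the complex median was 0.20 and that of the other cytosolic genes 0.45. The sign of the first thus rested on w1118 replicates 1 and 3. In the mutant 2 of the 6 complex members and 9 of the 10 others were higher, with medians of -0.51 and 0.48. Of all probe sets 52.0% were higher there. Against replicate 2 alone those medians were 0.43 and -0.06, so both signs turned.

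The 3 scaffold genes of the complex, all measured, had higher values. AIMP3 read 2.78, 5.38 and 2.62 in w1118, 4.58, 4.24 and 4.81 in the mutant and 6.27, 5.76 and 6.03 in the overexpression label. All 3 scaffolds lay above every w1118 and every mutant array in the overexpression label, and 0 of 3 passed. Of all probe sets 17.0% lay above every w1118 array and 22.4% above every mutant array. The differences from w1118 were 1.65 for AIMP1 (SE 0.41, limma adjusted p = 0.0941), 1.29 for AIMP2 (SE 0.40, limma adjusted p = 0.1) and 2.43 for AIMP3 (SE 0.66, limma adjusted p = 0.0963). Without w1118 replicate 2 all 3 passed, where 40.6% of all probe sets passed, and against it alone their median was 0.60. The catalytic subunit gene alpha-PheRS, read at 4.48, 6.26 and 3.74 in w1118, at 5.35, 5.12 and 5.60 in the mutant and at 7.42, 6.88 and 6.92 in the overexpression label, stood 2.25 higher (SE 0.56, limma adjusted p = 0.0941). Its partner subunit beta-PheRS differed by -0.08 (SE 0.42, limma adjusted p = 0.902), and its groups overlapped.

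**Figure D3:**
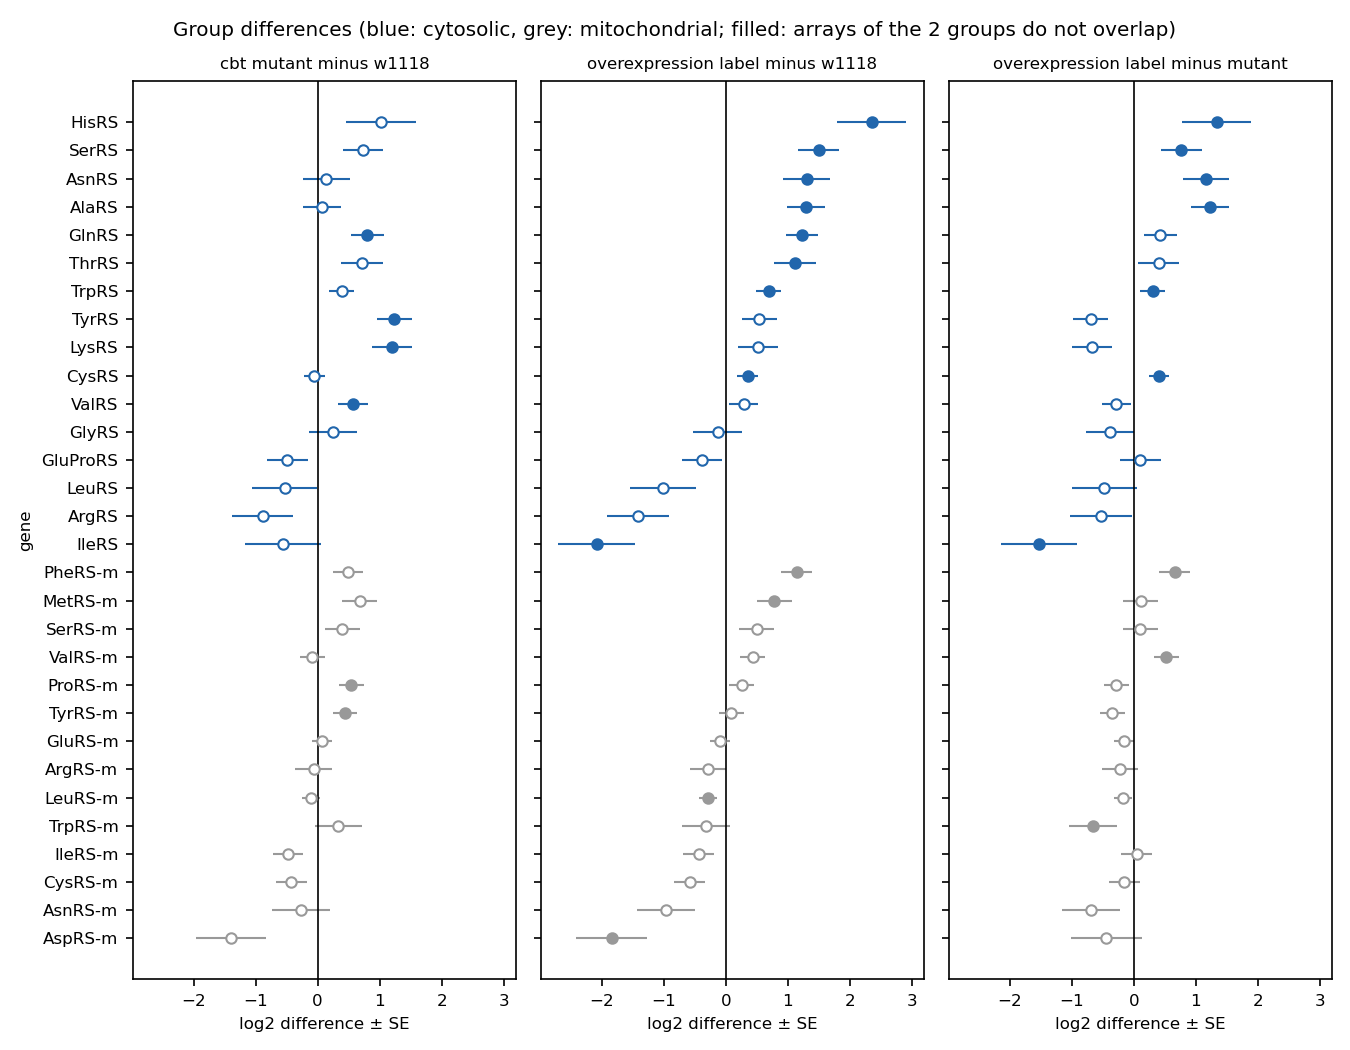
Log2 difference ± SE for the 30 genes in the 3 comparisons (panels), cytosolic in blue and mitochondrial in grey, with a filled point where the arrays of the 2 groups do not overlap. Filled points on the higher side number 6, 10 and 8 from left to right and on the lower side 0, 3 and 2; none of the 30 genes passed an adjusted p of 0.05 in any panel.

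Mitochondrial synthetases pointed both ways. In the overexpression label 6 had higher and 8 lower values than w1118, with 2 of each not overlapping. Of all probe sets 60.4% were higher, 17.0% lay above every w1118 array and 12.0% below every one. PheRS-m, the mitochondrial phenylalanyl enzyme, read 5.39, 5.22 and 4.46 in w1118, 5.55, 5.38 and 5.60 in the mutant and 6.05, 6.42 and 6.03 in the overexpression label. The overexpression label arrays lay above all others, with a difference from w1118 of 1.14 (SE 0.24, limma adjusted p = 0.0873) that was 0.95 against replicate 2 alone. MetRS-m, which charges the mitochondrial methionine tRNA, read 0.77, 1.48 and 0.67 in w1118, 2.07, 1.31 and 1.57 in the mutant and 2.09, 1.53 and 1.66 in the overexpression label. It cleared the w1118 range by a small margin. The difference of the group means was 0.79 (SE 0.28, limma adjusted p = 0.117), and it was 0.28 against replicate 2 alone.

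AspRS-m, the mitochondrial aspartyl enzyme, read 4.02, 1.95 and 4.31 in w1118, 1.59, 2.46 and 2.04 in the mutant and 1.59, 1.45 and 1.73 in the overexpression label. Its w1118 replicate 2 lay inside the mutant range, and the overexpression label arrays lay below all w1118 arrays. The difference of -1.84 (SE 0.57, limma adjusted p = 0.1) was -2.58 without w1118 replicate 2 (limma adjusted p = 0.000172) and -0.37 against it alone. LeuRS-m, the mitochondrial leucyl enzyme, lay below w1118 without overlap. Its difference was only -0.29 (SE 0.15, limma adjusted p = 0.212), and -0.43 against replicate 2 alone. AsnRS-m, the mitochondrial asparaginyl enzyme, read 2.52, 0.79 and 2.19 in w1118, 1.01, 2.14 and 1.54 in the mutant and 0.58, 1.16 and 0.87 in the overexpression label. Its groups overlapped through w1118 replicate 2, and the difference of -0.97 (SE 0.47, limma adjusted p = 0.189) turned to 0.08 against that array alone. CysRS-m did not exceed background on any overexpression label array, and w1118 replicate 2 also lay below its background, inside the overexpression label range. The bound of w1118 being at least 1.19-fold higher therefore rests on w1118 replicates 1 and 3, and against replicate 2 alone the difference was 0.02. The other 8 mitochondrial genes overlapped with w1118 at differences between -0.44 (IleRS-m) and 0.50 (SerRS-m).

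In cbt mutant embryos 6 members lay above every w1118 array and 0 below, where 5.38% and 4.42% of all probe sets did so. None of the 30 members passed (0, beside 0.133% of all probe sets), and the smallest adjusted p of a member was 0.272. At an unadjusted p under 0.05 there were 6 higher members and 1 lower, beside 3.84% and 5.17% of all probe sets. The median difference was 0.32 over the cytosolic and 0.00 over the mitochondrial genes, against 0.01 over all probe sets.

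TyrRS, the tyrosyl enzyme, read 5.25, 5.87 and 5.27 in w1118, 6.81, 6.23 and 7.06 in the mutant and 5.63, 6.30 and 6.09 in the overexpression label. Each mutant array exceeded each w1118 array, and the overexpression label arrays lay between the group means. The mutant stood 1.23 above w1118 (SE 0.28, limma adjusted p = 0.272), 1.44 above it without replicate 2 (limma adjusted p = 0.0076) and 0.83 above replicate 2 alone. LysRS, the lysyl enzyme, read 4.33, 3.98 and 4.10 in w1118, 5.83, 4.89 and 5.27 in the mutant and 4.01, 5.08 and 4.87 in the overexpression label. Its w1118 arrays lay close together, including replicate 2. The mutant was higher by 1.19 (SE 0.32, limma adjusted p = 0.356), and the values without replicate 2 and against it alone were 1.12 (limma adjusted p = 0.068) and 1.35. GlnRS and ValRS, the latter the valyl enzyme, also cleared the w1118 range in the mutant. Their group means differed by 0.80 (SE 0.26, limma adjusted p = 0.440) and 0.57 (SE 0.24, limma adjusted p = 0.541).

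A pair of mitochondrial genes cleared it as well. ProRS-m, the mitochondrial prolyl enzyme, read 2.05, 2.00 and 1.92 in w1118, 2.48, 2.81 and 2.30 in the mutant and 1.84, 2.4 and 2.5 in the overexpression label. Its w1118 arrays had an SD of 0.07 (n = 3), and the difference of 0.54 (SE 0.20, limma adjusted p = 0.498) was 0.53 against replicate 2 alone. TyrRS-m stood 0.44 higher (SE 0.20, limma adjusted p = 0.586). MetRS-m was 0.68 higher (SE 0.28, limma adjusted p = 0.542) but overlapped with w1118 at replicate 2.

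The members with the lowest values in the mutant comparison took them from w1118 replicates 1 and 3. AspRS-m differed by -1.40 (SE 0.57, limma adjusted p = 0.533), ArgRS by -0.89 (SE 0.50, limma adjusted p = 0.661) and IleRS by -0.56 (SE 0.62, limma adjusted p = 0.879). IleRS-m, the mitochondrial isoleucyl enzyme, read 2.06, 1.03 and 1.44 in w1118, 0.92, 1.23 and 0.94 in the mutant and 0.97, 1.09 and 1.16 in the overexpression label. It differed by -0.48 (SE 0.25, limma adjusted p = 0.622), and GluProRS by -0.49 (SE 0.33, limma adjusted p = 0.744). Against w1118 replicate 2 alone these became 0.08 for AspRS-m, 0.18 for ArgRS, 0.95 for IleRS and 0.23 for GluProRS, and IleRS-m came to 0.00066. HisRS, at 1.02 above all 3 w1118 arrays (SE 0.56, limma adjusted p = 0.648), became -0.39.

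**Figure D4:**
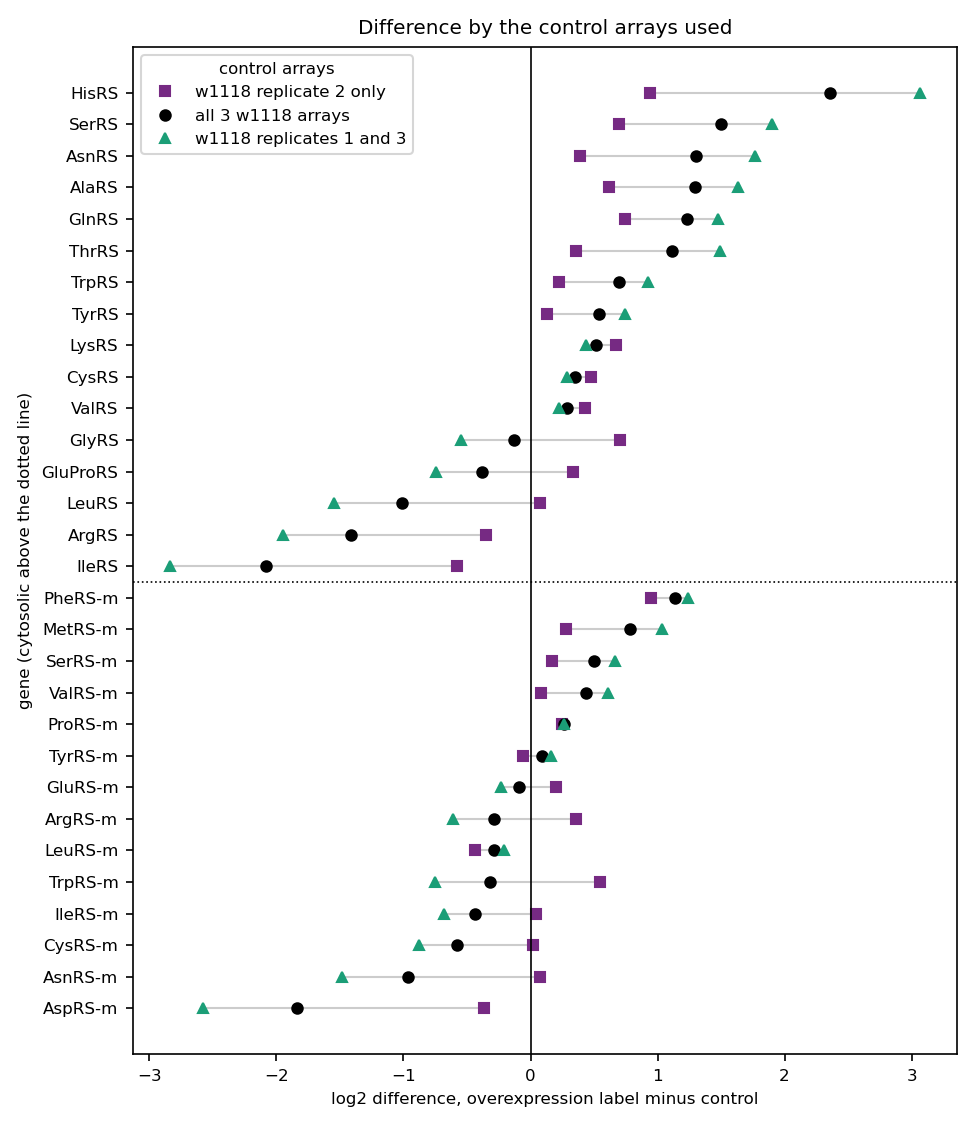
Log2 difference of the overexpression label from w1118 for each of the 30 genes, computed against w1118 replicate 2 only (squares), all 3 w1118 arrays (circles) or w1118 replicates 1 and 3 (triangles). HisRS runs from 0.94 to 3.06 and IleRS from -0.58 to -2.83, and 10 of the 30 genes, LeuRS, GluProRS and AsnRS-m among them, have squares and triangles on opposite sides of zero.

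Leaving out w1118 replicate 2 moved the calls of both comparisons with w1118. In the mutant 7 members then passed as higher (TyrRS, HisRS, SerRS, ThrRS, GlnRS, TrpRS and MetRS-m) and 6 as lower (AspRS-m, ArgRS, IleRS, GluProRS, CysRS-m and IleRS-m), where 21.2% of all probe sets passed. In the overexpression label 10 passed as higher and 8 as lower, where 40.6% of all probe sets did. With w1118 replicate 2 as the only control 0 members passed in either comparison, beside 0.202% of all probe sets. The sign of the difference turned between replicate 2 alone and replicates 1 and 3 for 20 of the 30 members in the mutant and 10 in the overexpression label, beside 61.9% and 37.1% of all probe sets. Over the table, differences also went with gene length, at a Spearman rho of -0.58 in the mutant comparison and -0.40 in the overexpression label comparison over 6070 probe sets with a mean level above 2. Over the 30 members, whose genes span 1595 to 10949 bases in the RefSeq table, rho was -0.24 and -0.13. These are descriptions across genes that share the same arrays.

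The third comparison, overexpression label against mutant, takes its differences from the 6 arrays outside w1118. It shares the mutant or overexpression label arrays with the comparisons above. In it 8 members lay above every mutant array and 2 below, where 22.4% and 16.2% of all probe sets did so. In the fit to all 9 arrays 0 members passed, beside 0.256% of all probe sets, with a smallest adjusted p of 0.131, and 7 higher and 2 lower members had an unadjusted p under 0.05, beside 9.71% and 9.17% of all probe sets. That fit takes part of its spread from w1118. Without w1118 replicate 2, HisRS, AlaRS, AsnRS and SerRS passed as higher and IleRS as lower, where 16.0% of all probe sets passed. Fitted to the 6 mutant and overexpression label arrays alone, 5 members passed as higher (HisRS, SerRS, AsnRS, AlaRS and PheRS-m) and 1 as lower (IleRS), where 13.8% of all probe sets passed. All 5 higher genes encode class II enzymes.

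The sizes of these differences are the same in both fits, as the w1118 levels do not enter them. Whether the w1118 arrays shaped the deposited levels through RMA was not tested. HisRS stood 1.33 above the mutant (SE 0.56, limma adjusted p = 0.256 with all 9 arrays and 0.0229 with the 6 arrays). AlaRS stood 1.23 above it (SE 0.30, limma adjusted p = 0.131 and 0.0108), AsnRS 1.16 (SE 0.38, limma adjusted p = 0.182 and 0.00797) and SerRS 0.77 (SE 0.33, limma adjusted p = 0.261 and 0.0159). PheRS-m stood 0.66 above it (SE 0.24, limma adjusted p = 0.224 and 0.0338). IleRS differed by -1.52 (SE 0.62, limma adjusted p = 0.245 and 0.0303), the lowest value of the 30.

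Other members separated the 2 groups without passing in either fit. ValRS-m, the mitochondrial valyl enzyme, read 2.21, 2.31 and 2.03 in the mutant, 2.82, 2.86 and 2.44 in the overexpression label and 2.27, 2.62 and 1.92 in w1118. It stood 0.52 above the mutant with no overlap (SE 0.20, limma adjusted p = 0.235 and 0.0721). TrpRS-m, the mitochondrial tryptophanyl enzyme, read 1.10, 1.75 and 1.55 in the mutant, 0.58, 0.88 and 0.97 in the overexpression label and 1.90, 0.26 and 1.23 in w1118. It lay below the mutant with no overlap, at -0.66 (SE 0.39, limma adjusted p = 0.374), near background on the overexpression label arrays. TyrRS differed by -0.69 (SE 0.28, limma adjusted p = 0.247) and overlapped at 1 array of each group, and AsnRS-m also differed by -0.69 (SE 0.47, limma adjusted p = 0.424). GluProRS differed by 0.11 (SE 0.33, limma adjusted p = 0.871). AIMP2 and AIMP3 stood 0.93 and 1.48 above the mutant and passed with the 6 arrays (limma adjusted p = 0.0106 and 0.00984). So did alpha-PheRS at 1.72 (limma adjusted p = 0.00738), while AIMP1 at 0.55 did not (limma adjusted p = 0.092). Of all probe sets 13.8% passed in that fit.

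Among the ATF4 and amino acid limitation genes, 10 of 15 were measured and 0 passed in any comparison of the 9-array fit. Against w1118 the overexpression label had 4 higher and 6 lower values, with a median of -0.45. Leaving out w1118 replicate 2 gave 3 higher and 5 lower calls, where 40.6% of all probe sets passed, and against it alone the median was -0.09. The transcription factor gene crc read 8.52, 7.21 and 8.50 in w1118, 7.33, 7.93 and 7.13 in the mutant and 6.10, 6.69 and 6.79 in the overexpression label. It lay below all other arrays in the overexpression label, at -1.55 from w1118 (SE 0.39, limma adjusted p = 0.0948) and -0.94 from the mutant, and at -0.69 from w1118 replicate 2 alone. PEK, a kinase of the initiation factor eIF2, differed from w1118 by -2.49 (SE 0.72, limma adjusted p = 0.097), and aay, a phosphatase of serine synthesis, by -2.84 (SE 0.66, limma adjusted p = 0.0933). Nmdmc, an enzyme of mitochondrial folate metabolism, stood 1.07 higher (SE 0.23, limma adjusted p = 0.0873). Against replicate 2 alone PEK differed by -0.65, aay by -2.09 and Nmdmc by 0.58, and all 3 passed without it. In the mutant, AsnS (asparagine synthetase) stood 1.15 higher (SE 0.51, limma adjusted p = 0.563) and Ire1, a sensor of unfolded protein in the endoplasmic reticulum, differed by -0.69 (SE 0.19, limma adjusted p = 0.366). Against w1118 replicate 2 alone these were 1.03 and -0.31. With the 6 mutant and overexpression label arrays alone, Nmdmc passed as higher and Gcn2, PEK and aay as lower, where 13.8% of all probe sets passed.

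Of the genes of tRNA maturation and modification, 13 of 16 were measured, and 8 were higher and 5 lower in the overexpression label than in w1118, with a median of 0.58 and 0 past the threshold. Over all probe sets 60.4% were higher in that comparison. Of the 13, 7 passed as higher and 1 as lower without w1118 replicate 2, where 40.6% of all probe sets passed. Against replicate 2 alone the median was 0.11. Rtca, an RNA phosphate cyclase, stood 2.79 higher (SE 0.59, limma adjusted p = 0.0873), and RtcB, the tRNA ligase, 1.49 higher (SE 0.40, limma adjusted p = 0.0963). Both lay above every w1118 and every mutant array, and against replicate 2 alone they stood 1.30 and 0.57 higher. The tRNA methyltransferase Mt2 stood 0.85 above w1118 in the mutant (SE 0.24, limma adjusted p = 0.378), and Elp2, a subunit of the Elongator complex, 0.61 above (SE 0.24, limma adjusted p = 0.515), or 0.68 and 1.02 above replicate 2 alone. Of the synthetase-related genes outside the rule, 3 of 5 were measured and 0 passed; Slimp, a mitochondrial paralogue of seryl-tRNA synthetase, differed by -0.66 in the overexpression label (SE 0.25, limma adjusted p = 0.129) and Dtd, a deacylase of mischarged D-amino acids, by 1.61 (SE 0.74, limma adjusted p = 0.173). Against replicate 2 alone Slimp differed by -0.35 and Dtd by -0.21.

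Markers of embryonic cell types were read beside these values, as sums of log2 levels over the measured genes of each list. Muscle markers (2 of 5 measured, Mlc1 and Mlc2) summed to 3.78 to 13.6 on the w1118 arrays, 7.57 to 10.9 in the mutant and 3.82 to 4.49 in the overexpression label. Epidermal markers (4 of 4, with ple not above background on any array) summed to 10.1 to 14.4, 11.4 to 12.0 and 9.23 to 9.80 in the same order, and tracheal markers (2 of 3) to 6.62 to 8.89, 7.61 to 7.75 and 6.63 to 6.85. In the overexpression label neuronal markers (4 of 5) and amnioserosa markers (5 of 5) overlapped with w1118, while hemocyte markers (4 of 4) summed to 14.9 to 15.2 against 15.3 to 16.8. Maternal or germ line markers (2 of 5) summed to 1.47 to 1.70 against 1.76 to 4.66. Of these 2 genes 0 lay above background on all 9 arrays, so their sums are limited by background. Muscle, epidermal and tracheal sums were thus below those of the mutant where HisRS, SerRS, AsnRS and AlaRS were above it. Maternal or germ line sums were also below it (1.71 to 5.42 in the mutant), and hemocyte sums were above it (14.5 to 14.8). Single markers of these lists pointed both ways. Against w1118 and against the mutant alike, 2 hemocyte markers were higher and 2 lower. For the maternal or germ line markers 1 was higher and 1 lower. Neuronal and amnioserosa sums overlapped with the mutant. Of the 4 epidermal markers 1 lay above every mutant array and 2 below, where 22.4% and 16.2% of all probe sets did so. The part of these cell types in the synthetase values was not tested.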

How the data were processed

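The deposited values are 1 log2 level per probe set and array on Affymetrix Drosophila Genome 2.0 arrays; they were made with RMA, affy and limma (versions not stated), per the submitters' processing notes. No source names the chip definition file, a filter or a genome build, so no coordinates are printed. No further normalization was applied. Of 18952 probe sets, 183 Affymetrix controls were left out. Probe sets were named by the platform annotation (1 symbol for 13647, several for 402, none for 4720).

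All 9 arrays entered 1 linear model of the 3 groups (limma 3.58.1, lmFit and eBayes, R 4.3.3). Benjamini-Hochberg adjustment ran over 18769 probe sets, with a threshold of 0.05. The fit was tested on simulated data with independent noise on each array. These held no array that stands apart as w1118 replicate 2 does, so the test does not cover that case. The 3 arrays per group limit the precision; an exact two-sided permutation test of 3 against 3 could not go below 0.1. The members and the gene lists were chosen with earlier results of these data known. Values on every array are given for the 2 highest and 2 lowest cytosolic and mitochondrial members per comparison and for GluProRS; for each list, the 2 genes with the smallest p per comparison are named. Other genes named were chosen after their values were seen. Same-numbered replicates did not deviate together (r of -0.37 to 0.26 over their 9 pairs), so they were not paired. Alternatives were equal medians, cyclic loess, a filter on dim probe sets, 2 groups only, array weights, a replicate block, w1118 replicate 2 as only control, a gene length correction, each array left out, and the mean of a gene's probe sets.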

Additional observations from a re-analysis of the deposited data

How the results depend on the processing

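The counts of synthetase genes called (0 in each comparison) stayed at 0 with equal medians, cyclic loess, the filter, the replicate block, the length correction, the mean of a gene's probe sets and w1118 replicate 2 as only control. With array weights, which gave w1118 replicate 2 a weight of 0.119, the counts were 20 for the mutant against w1118, 19 for the overexpression label against w1118 and 7 for the overexpression label against the mutant. Of all 18769 probe sets, 5329, 8846 and 3802 passed with these weights. With only the 2 groups compared the synthetase counts were 0, 0 and 6. Leaving out each array in turn gave 0 to 13, 0 to 18 and 0 to 5, above 0 only without w1118 replicate 2. Over all probe sets the counts in the same order were 25, 70 and 48. They were 3, 18 and 2595 with 2 groups only, and 11, 17 and 30 with the replicate block. With w1118 replicate 2 as only control they were 38 and 38. For the overexpression label against the mutant, the filter gave 73 and the length correction 29. Leaving out each array gave 12 to 3987, 11 to 7625 and 24 to 2999, the highest each time without w1118 replicate 2.

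For the 27 named gene differences, 423 of the alternative values kept sign and side of the threshold and 45 newly passed, of which 22 came with array weights, 19 without w1118 replicate 2 and 4 with 2 groups only. The remaining 9 changed sign without passing, 7 of them against w1118 replicate 2 alone and GluProRS against the mutant with equal medians (-0.02) and without mutant replicate 1 (-0.09). Why w1118 replicate 2 stands apart was not tested. Levels near background limit AsnRS-m, CysRS-m, GluRS-m, IleRS-m and TrpRS-m.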

Other observations

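Other translation genes were measured beside the synthetases. Of 8 genes measured among 11 for eIF2 and initiator tRNA factors, 5 were higher and 3 lower in the overexpression label than in w1118, with a median of 0.83 and 0 past limma's threshold. Without w1118 replicate 2, 5 passed as higher and 2 as lower, where 40.6% of all probe sets passed in either direction, and against it alone the median was 0.22. eIF2Balpha and eIF2Bbeta, subunits of the exchange factor that recharges eIF2, stood 0.86 and 1.24 higher (limma adjusted p = 0.0935 and 0.0946), while eIF5, which stimulates GTP hydrolysis by eIF2, differed by -2.15 (limma adjusted p = 0.0933). Against replicate 2 alone these were 0.42, 0.47 and -0.88. eIF2beta differed from the mutant by -1.91 (limma adjusted p = 0.256). Among mitochondrial translation factors, 11 of 12 measured, the elongation factor genes mEFTu1, mEFTu2 and mEFTs stood 1.96, 1.54 and 1.14 above w1118 (limma adjusted p = 0.089, 0.0963 and 0.0933) and mRRF2, a ribosome recycling factor, differed from the mutant by -0.67 (limma adjusted p = 0.206). The 3 elongation factor genes stood 0.95, 0.56 and 0.57 above replicate 2 alone. The list median was 0.27, with 6 higher and 5 lower and 0 passing, while 5 passed as higher and 4 as lower without replicate 2 and the median was 0.26 against it alone.

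Cytosolic elongation and release factors, 8 of 12 measured, had 3 higher and 5 lower values, a median of -0.31 and 0 past the threshold. Without w1118 replicate 2 there were 2 higher and 3 lower calls, and against it alone the median was -0.03. For this list and those below, 40.6% of all probe sets passed without replicate 2. eEF1gamma differed from the mutant by -1.42 (limma adjusted p = 0.113) and pelo, a ribosome rescue factor, by 1.13 (limma adjusted p = 0.131). eRF1 stood 0.46 above w1118 in the overexpression label (limma adjusted p = 0.124). In the mutant, Hbs1 stood 0.66 higher and eRF3 differed by -0.96 (limma adjusted p = 0.493 and 0.619), or by 0.35 and 0.23 from replicate 2 alone. Of the Myc and ribosome biogenesis list, 14 symbols for 13 genes, 11 were measured, with 3 higher and 8 lower in the overexpression label, a median of -0.33 and 0 past the threshold. In the absence of w1118 replicate 2, 2 passed as higher and 4 as lower, and against it alone the median was -0.22. Mondo, a sugar-responsive transcription factor, read 6.38, 5.75 and 6.74 in w1118, 5.05, 5.66 and 5.25 in the mutant and 4.39, 4.55 and 5.01 in the overexpression label, below w1118 without overlap in both (-0.97, limma adjusted p = 0.399, and -1.64, limma adjusted p = 0.0708). The 2 comparisons share the w1118 arrays, and against replicate 2 alone Mondo differed by -0.43 and -1.11. Mnt differed by -1.48 in the mutant (limma adjusted p = 0.566) and by 0.15 against replicate 2 alone, ns1 by -1.26 in the overexpression label (limma adjusted p = 0.108) and by -0.37 against replicate 2 alone, and mfl, a pseudouridine synthase, by -0.62 from the mutant (limma adjusted p = 0.135). Amino acid transporters, 7 of 8 measured, had 4 higher and 3 lower values with a median of 0.04 and 0 past the threshold. None (0) passed as higher and 1 as lower without w1118 replicate 2, and against it alone the median was 0.29. path stood 1.08 above w1118 and slif differed by -1.60 (limma adjusted p = 0.160 and 0.188), or 1.85 and -2.99 from replicate 2 alone. In the mutant JhI-21 stood 0.61 higher (limma adjusted p = 0.626) and 0.77 above replicate 2 alone.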
